A study of Mus musculus with 2 samples.

Results

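Counts in nuclear RNA of mouse macrophages are described here for 150 annotated antisense RNA genes and the protein-coding genes on the opposite strand. Whether the libraries kept strand is not stated, so these counts can hold RNA of the opposite strand. The 150 genes were chosen by their values. For this, 3061 genes with an antisense transcript and no protein_coding or lincRNA transcript were ranked by the mean expected count of both libraries. The highest 150 were taken, from 55536 genes in all. Before ranking, 6 of 3067 such genes were left out by symbol: Kcnq1ot1 and those starting with Snhg or Mir. The series held 1 group of 2 libraries, replicate 1 and replicate 2, of ribosome-depleted total RNA from the nucleoplasmic fraction of bone marrow-derived macrophages, which are primary cells grown from the marrow of C57BL/6J mice. The cells had received 100 ng/ml Lipid A, the toll-like receptor 4 agonist of bacterial lipopolysaccharide, for 12 h, were left 12 h after washing, and received 100 ng/ml Lipid A again for 10 min. The labels call the libraries biological replicates and give both the same donor identifier; the starting quantity was 1 µg for replicate 1 and 500 ng for replicate 2. There was no unstimulated sample, so no value below is a response to Lipid A, and no test between conditions was possible.

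An antisense RNA is transcribed from the DNA strand opposite another gene, so part of its sequence can be complementary to that gene's exons or introns. Some such RNAs act on the neighbouring gene through its chromatin, splicing or transcript stability, some act elsewhere, and for most no role is known. Many start close to the promoter of a coding gene and run away from it, a layout called divergent. Unprocessed RNA of coding genes is also abundant in nuclear preparations. The partner of an antisense gene is taken here as the protein-coding gene on the opposite strand whose gene body it overlaps longest in GENCODE M21.

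The complementary part is shown first for 4 pairs, because it is what sets these genes apart from other noncoding RNAs. Capitals mark bases of the antisense transcript, 5′ to 3′, that lie opposite a coding exon of the partner, with short flanks in lower case. The positions of the capitals on mm10 were chr19:29380304-29380588 on the minus strand for AC119228.1 against Cd274, the immune checkpoint ligand PD-L1, and chr19:11480299-11480399 on the minus strand for BE692007 against Ms4a6c, a membrane protein of the MS4A family. They were chr1:85643203-85643346 on the minus strand for Gm17017 against Sp140, a nuclear body protein of immune cells, and chr7:19001097-19001158 on the minus strand for Mypopos against Mypop, a Myb-related repressor.
AC119228.1: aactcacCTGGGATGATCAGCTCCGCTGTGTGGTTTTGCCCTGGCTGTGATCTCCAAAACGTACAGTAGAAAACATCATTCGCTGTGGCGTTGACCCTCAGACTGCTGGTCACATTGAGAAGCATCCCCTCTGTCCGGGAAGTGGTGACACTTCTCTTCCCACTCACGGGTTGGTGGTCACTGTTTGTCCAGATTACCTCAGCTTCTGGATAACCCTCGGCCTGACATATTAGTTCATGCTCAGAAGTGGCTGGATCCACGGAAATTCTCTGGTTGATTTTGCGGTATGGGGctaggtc
BE692007: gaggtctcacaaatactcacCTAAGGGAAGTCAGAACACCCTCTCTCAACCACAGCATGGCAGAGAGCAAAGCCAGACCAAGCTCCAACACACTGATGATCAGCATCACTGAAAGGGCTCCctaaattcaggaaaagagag
Gm17017: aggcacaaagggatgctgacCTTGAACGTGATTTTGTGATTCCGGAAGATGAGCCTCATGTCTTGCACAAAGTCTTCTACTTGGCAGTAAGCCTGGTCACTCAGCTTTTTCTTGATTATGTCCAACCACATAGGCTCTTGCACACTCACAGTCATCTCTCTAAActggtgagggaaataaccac
Mypopos: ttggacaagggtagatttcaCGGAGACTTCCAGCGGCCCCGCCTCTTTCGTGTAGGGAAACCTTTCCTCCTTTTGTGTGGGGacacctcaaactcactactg
In AC119228.1, BE692007 and Gm17017 the capitals covered a whole exon of the partner. Read on the partner's strand, the flanks of those 3 began with gt after the exon and ended with ag before it, the letters of a splice donor and acceptor. The antisense transcript model thus ran through exon and intron edges of the partner without being cut there. Of 72 antisense genes with a coding overlap whose sequence was read, the longest overlap was a whole partner exon in 27, and in 23 of these gt and ag flanked it. Its length was 146.5 bases at the median, 19 at the shortest and 841 at the longest.

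F630028O10Rik, on chromosome X, is the exonic host of Mir223, a miRNA known for its abundance in myeloid cells. Its mature forms are shown with the seed, bases 2 to 8, in capitals, from RefSeq on GRCm38.p6.
miR-223-3p: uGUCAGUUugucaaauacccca
miR-223-5p: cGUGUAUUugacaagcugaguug
The Mir223 gene itself was listed at 0 in both libraries, and the libraries' size range is given as 250 to 400 bases. The values below are those of the long host RNA.

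The 150 genes held 80104 of 24444219 expected counts in replicate 1 and 56180 of 18051097 in replicate 2. That was 0.328% (95% exact binomial interval 0.325 to 0.330%) and 0.311% (0.309 to 0.314%), or 0.319% ± 0.0116 (SD, n = 2); such intervals cover counting error only. In these bulk samples fewer cells of a type and less RNA per cell cannot be told apart. The macrophage label was checked on 42 marker genes, of which 41 were detected (TPM, a level scaled for length and depth, of at least 1 and at least 10 expected counts in each library). Of 35 markers of other lineages 1 was detected, Pecam1, and their summed level was 3.15 TPM in replicate 1 and 1.97 TPM in replicate 2. Of the antisense genes, 144 were detected by the same rule and 6 fell under 1 TPM in a library. Among the other 2911 ranked genes 199 were detected, and 1449 of all ranked genes were listed at 0 in both libraries.

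How the reads were assigned to strands touches each value here. The sources used here do not say whether the libraries kept strand, and the signal tracks they list have no strand of their own. The gene tables give, for each count, an SD that arises when a read can belong to several entries. Of 104 antisense genes whose exons overlapped those of genes on the opposite strand and of none on the same strand, this SD was above 0 for 81 in replicate 1 and for 72 in replicate 2. Of 36 whose exons overlapped no other gene, it was above 0 for 2 and for 1. The SD thus went with exon overlap, also where the overlapping genes were all on the opposite strand. The SD was over 5% of the count for 9 genes in replicate 1 and 13 in replicate 2, with a maximum of 14.3% and 16.5%. Intron reads of the partner that fall on antisense exons cannot be told apart from antisense RNA without strand, and their part in the levels was not tested.

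AC119228.1 had the highest mean count of the 150, and its expected counts were 10544 in replicate 1 and 4815 in replicate 2. Its levels were 69.1 and 49.0 TPM, against 211 and 201 TPM for Cd274. It lies wholly inside Cd274 (mm10 chr19:29373417-29384471, minus strand): 89.2% of its exon bases were opposite Cd274 introns and 10.8% opposite Cd274 coding exons. This single gene held 13.2% of the counts of the 150 in replicate 1 and 8.57% in replicate 2, and the 10 highest together held 41.7% and 38.9%.

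Tug1, a long noncoding RNA conserved between mouse and human, was the second (chr11:3639785-3649673, minus strand). It had 5994 and 5533 expected counts in replicates 1 and 2. Its level was 41.1 and 46.9 TPM, against 10.3 and 15.0 TPM for Morc2a, an ATPase of chromatin silencing whose start lies 86 bases away, so here the noncoding gene was the higher in both libraries. Only 4.96% of its exon bases were shared with Morc2a exons and none lay opposite its introns. BE692007 (chr19:11470166-11484578, minus strand) overlapped 12027 bases of Ms4a6c, from the 3′ end through most of that gene. Opposite Ms4a6c exons lay 20.8% of the BE692007 exon bases, and opposite Ms4a6c introns 33.7%. Its level was 37.4 and 31.8 TPM, against 141 and 107 TPM for Ms4a6c. F630028O10Rik (chrX:96239926-96243636, plus strand), the host of Mir223, had no coding gene opposite and 29.1 and 33.9 TPM. Its log2 ratio of replicate 2 over replicate 1 was -0.02, from counts scaled by TMM, the trimmed mean of M values.

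Zfas1 is the host of Snord12, a small nucleolar RNA, and shares its promoter region with Znfx1, a helicase-like protein with antiviral activity (chr2:167062934-167065862, plus strand; starts 80 bases apart). It had 77.6 and 51.3 TPM in replicates 1 and 2, against 150 and 112 TPM for Znfx1, and both genes of the pair were lower in replicate 2. The 3 small nucleolar RNA genes inside Zfas1 were listed at 0. Over its 5 models, retained-intron ones among them, all 2929 bases of Zfas1 counted as exon, so their placement in exons or introns was not separated. 4933423P22Rik (chr2:90479236-90488425, plus strand) lay inside Ptprj, the receptor phosphatase CD148, and opposite its introns only. It started 66 bases from the start of a Ptprj transcript inside that gene, not from the outer start of Ptprj near 90580600. Its level was 15.4 and 17.6 TPM, against 73.0 and 70.0 TPM for Ptprj. Gm46411 lay opposite introns of Rreb1, a zinc finger transcription factor, with 18.4 and 20.5 TPM, against 30.2 and 29.7 TPM. Neither of these 2 shared an exon base with its partner.

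The remaining 3 of the 10 highest were Gm45606, Brip1os and Gm26716. Gm45606 overlapped the 5′ end of Slc43a2, an amino acid transporter, and had 16.7 and 12.4 TPM, against 109 and 119 TPM. Brip1os starts 177 bases from Brip1, a DNA repair helicase, and spans Ints2, a subunit of the Integrator complex; it had 8.12 and 8.56 TPM, against 5.77 and 7.63 TPM for Ints2. Gm26716 had the highest TPM of the 150 in the gene tables, 146 and 155, against 187 and 134 TPM for Sdc3, a syndecan. In the second quantification, made from the reads and an index, it ranked 66 in replicate 1 and 9 in replicate 2 by TPM. All of its 415 exon bases were exon bases of Sdc3 too, none of them coding, and the order within the pair differed between the libraries.

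**Figure D1:**
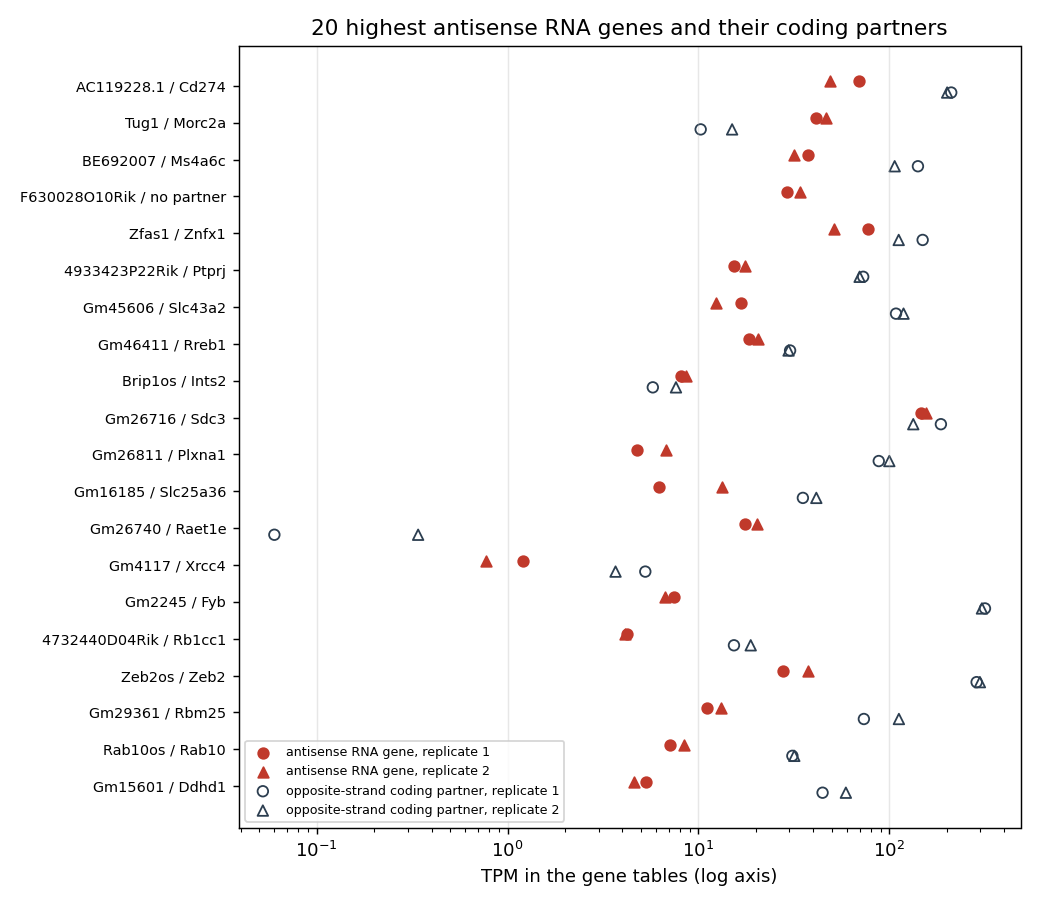
Levels of the 20 highest antisense RNA genes (filled) and of their opposite-strand coding partners (open) in TPM on a log axis, 1 symbol per library. Tug1, Brip1os and Gm26740 lay above their partner in both libraries, Gm26716 in 1 library, and F630028O10Rik has no partner.

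Partners with a role in macrophage or inflammatory biology were looked up in lists. Of 86 NF-kB, toll-like receptor and cytokine genes 2 were partners (2.33%, Cd274 and Ikbke), of 42 macrophage identity genes 2 (4.76%, Maf and Zeb2), and of 56 interferon-stimulated genes 1 (1.79%, Slfn2). Of 82 transcription and chromatin regulators 3 were partners (3.66%, Dnmt3a, Tet3 and Zmiz1). Over all 9443 detected protein-coding genes the share was 1.31%, so each list rests on 1 to 3 genes and nothing particular to a list follows.

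Gm28913 lies inside Ikbke, the kinase IKK epsilon of the interferon pathway, and had 40.9 and 34.4 TPM in replicates 1 and 2, against 251 and 224 TPM for Ikbke. Gm20234 overlaps the 3′ end of Slfn2, a Schlafen gene of immune cells, with 9.86 and 8.80 TPM, against 203 and 203 TPM. Zeb2os lies inside Zeb2, a transcription factor of macrophage identity, and starts 26 bases from a Zeb2 start; its human counterpart is known for an effect on ZEB2 splicing. It had 27.9 and 37.7 TPM, against 287 and 299 TPM for Zeb2. In all 3 pairs the antisense gene was below its partner in both libraries by several fold at these gene-table levels. In the second quantification Zeb2os had 106 and 147 TPM, Gm28913 68.0 and 77.7 TPM, and Gm20234 32.6 and 37.4 TPM. The TPM levels of these 3 genes thus depended on the quantification. By counts scaled to equal library totals Zeb2os differed less, by log2 values of 0.61 and 0.59 in replicates 1 and 2. Levels of the partners in the second quantification are not given, so the difference within the pairs is not described there.

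Gm15655 lies wholly within exon bases of Maf, another macrophage transcription factor, none of them coding. It had 295 and 463 expected counts and 33.1 and 76.1 TPM in replicates 1 and 2, against 97.5 and 115 TPM for Maf. The SD from read assignment was 27.0 and 23.1 counts, and the part of divided reads in the difference between the libraries was not tested. Other partners of immune cells, named after their values were seen, included Slamf7, a receptor of the SLAM family, and Ebi3, a subunit of interleukin 27. Gm37787, inside Slamf7, had 20.3 and 16.4 TPM, against 163 and 125 TPM. Gm16712, at the 3′ end of Ebi3, had 5.16 and 4.84 TPM, against 27.8 and 14.2 TPM. Gm17017, at the 3′ end of Sp140, had 5.84 and 3.79 TPM, against 76.4 and 52.8 TPM. All 3 partners were lower in replicate 2, and so were the 3 antisense genes.

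The second PD-1 ligand gene, Pdcd1lg2, was the partner of A930007I19Rik, which overlapped it at the 3′ ends. The layout was unlike that of AC119228.1 in Cd274. Outside Pdcd1lg2 lay 93.9% of the A930007I19Rik exon bases, and 6.15% lay opposite Pdcd1lg2 introns. A930007I19Rik had 2.66 and 1.25 TPM in replicates 1 and 2, against 0.60 and 0.28 TPM for Pdcd1lg2. Both genes of this pair were low and both were lower in replicate 2.

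Of the 150 symbols 11 name a coding gene followed by os, for opposite strand, with or without a digit. Besides Brip1os and Zeb2os the highest were Rab10os, Zmiz1os1, Mypopos, Phtf1os, Uckl1os and Peak1os. Rab10os, at the 3′ end of the vesicle GTPase gene Rab10, had 7.07 and 8.36 TPM, against 31.1 and 31.8 TPM. Zmiz1os1, at the 5′ end of the transcription coregulator gene Zmiz1, had 5.81 and 4.44 TPM, against 47.6 and 47.6 TPM. Mypopos stood above Mypop, with 7.14 and 10.3 TPM, against 1.52 and 2.19 TPM. It was the only one of these 6 above its partner in both libraries. Phtf1os had 2.16 and 2.51 TPM, against 5.74 and 6.70 TPM for Rsbn1, the gene it overlaps longest, while the start of Phtf1 lay 7 bases from its own. Uckl1os had 4.75 and 5.37 TPM, against 36.3 and 39.2 TPM for the kinase gene Uckl1. Dnmt3aos, inside the DNA methyltransferase gene Dnmt3a, was lower, with 3.73 and 3.93 TPM, against 49.4 and 60.7 TPM. Of 33 known antisense RNAs looked up, 3 were among the 150: Tug1, Zeb2os and Dnmt3aos. Not all of the 33 could be. Kcnq1ot1 was left out by symbol, with 6989 and 7528 expected counts, more than Tug1 in both libraries, at 1.90 and 2.92 TPM. Dleu2, with 5449 and 3950 counts, and Lncpint, with 3631 and 2123, were not ranked either. Others, among them Ftx and Jpx, did not meet the rule on transcript types. Airn, the imprinted antisense RNA of Igf2r, ranked 166, with 118 and 107 expected counts.

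A partner was found for 144 of the 150. These were 142 different genes, since Lrmda and Arhgap10 each faced 2 antisense genes. The 6 without one were F630028O10Rik, D730005E14Rik, Gm26947, 4930430E12Rik, Gm16094 and Gm15859. By layout 66 lay inside the partner, 40 overlapped it at the 3′ ends, 29 at the 5′ ends, and 9 spanned it. Exon bases were shared in 104 pairs and coding bases in 73, while 40 pairs shared none. For 74 of the 150 (49.3%) a coding gene on the other strand started within 1000 bases, against 36.9% of the other 2911 ranked genes. The 150 also had longer exon sequence, 2788.5 bases at the median against 908, and more often a single exon, 15.3% against 5.60%. Overlap at the 3′ ends was found for 26.7% of the 150, against 13.8% of the others. Counts rise with length, and counts chose the 150, so these differences are described with no test.

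The partners were mostly expressed genes: 124 of 142 (87.3%) were detected, against 42.9% of all 22028 protein-coding genes. The 150 were chosen by counts that can hold reads of the partner, and the part of such reads in this contrast was not tested. The median level of the partners was 20.1 TPM in replicate 1 and 18.8 TPM in replicate 2, and 12 were at 100 TPM or more in both. Taken over both libraries it was 19.6 TPM, against 0.525 TPM for partners of the other ranked genes. The antisense genes themselves had a median of 4.20 and 4.14 TPM, with a range of 0.62 to 146 TPM in replicate 1 and 0.77 to 155 TPM in replicate 2. In 111 pairs the antisense gene was below its partner in both libraries, in 29 above it in both, and in 4 the order differed. Where the partner was detected (126 pairs), 11 antisense genes were above it in both libraries.

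The median log2((antisense TPM + 1)/(partner TPM + 1)) was -1.79, with -1.87 in replicate 1 and -1.80 in replicate 2 (SD 0.0525 between libraries, n = 2). The quartiles were -2.78 and -0.48, so most pairs lay well below equality. By layout the median was -1.92 inside the partner, -1.75 at 3′ ends, -1.99 at 5′ ends and -1.49 for the 9 spanning genes. The layouts overlapped widely in the plot of antisense over partner levels. Across the 144 pairs Spearman's rho of the mean TPM values was 0.396; the values within a pair share library, region and, in part, reads, and no p is given.

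**Figure D2:**
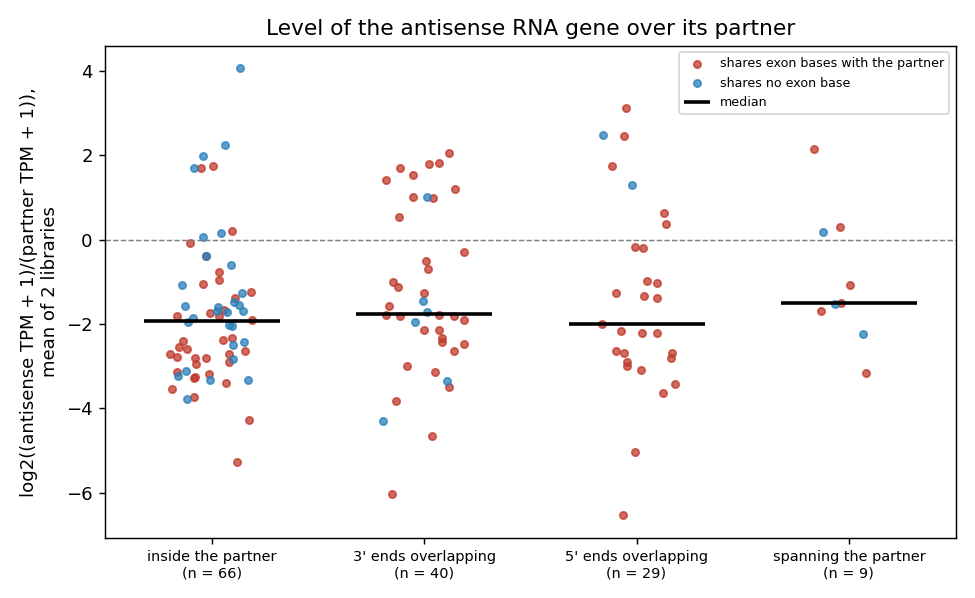
Each point is 1 of 144 antisense RNA genes, placed by its log2 level over the partner (TPM + 1, mean of 2 libraries) within 4 layouts, coloured by whether exon bases are shared; bars are medians. Points of all layouts reach from below -3 to above 0, and the medians lie between -1.99 and -1.49.

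The antisense genes highest over a partner of at least 1 TPM were Mypopos, Tug1, 5430405H02Rik and E130307A14Rik. For Mypopos the log2 level over the partner was 1.76 ± 0.09 (SD, n = 2). For Tug1 it was 1.74 ± 0.23. 5430405H02Rik, at the 3′ end of the corepressor gene Tgif2, had 9.16 and 6.59 TPM, against 2.29 and 2.34 TPM. E130307A14Rik, at the 3′ end of Traf3ip2, an adaptor of interleukin 17 signalling, had 5.87 and 8.41 TPM, against 2.62 and 2.33 TPM. In these 4 pairs no value of the antisense gene was as low as a value of its partner.

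At the other end stood Gm11131, E530011L22Rik, Gm2245 and Gm37305. Gm11131 had 2.00 and 1.53 TPM, against 279 and 233 TPM for H2-Q4, a class Ib histocompatibility gene with close relatives. E530011L22Rik had 0.73 and 0.89 TPM, against 102 and 134 TPM for Nktr, a cyclophilin-related gene. Gm2245 had 7.49 and 6.72 TPM, against 317 and 306 TPM for Fyb, an adaptor protein of haematopoietic cells. Gm37305 had 2.52 and 2.03 TPM, against 96.5 and 116 TPM for the cyclin gene Ccnl1. All 4 share exon bases with these abundant partners.

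Over the 144 pairs 12.0% of the antisense exon bases lay opposite partner exons, 55.0% opposite partner introns and 32.9% outside the partner. In 81 pairs at least 50% of the antisense exon bases were opposite partner introns, and their median log2 level over the partner was -2.01. In 24 pairs no antisense exon base was opposite a partner intron, and the median there was -1.06. The antisense genes of the 81 pairs had a median of 4.47 TPM and those of the 24 pairs 4.06 TPM, and their partners 21.1 and 15.2 TPM. For 9 antisense genes other annotated noncoding genes of 1 exon lay in the introns of the same partner, 13 in all, whose levels can be set beside them. In 6 of these 9 the antisense gene was above each such gene in both libraries. Counting only neighbours on the partner's strand, this held for 5 of 8. The antisense genes were chosen by their counts and the neighbours were not, so the order is described with no test. B230319C09Rik, opposite introns of the DNA demethylase gene Tet3, had 9.49 and 12.5 TPM, against 5.98 and 6.92 TPM for 5430434F05Rik on the Tet3 strand. Gm45406, in Arhgap10, went the other way, with 2.45 and 3.64 TPM, against 8.19 and 9.86 TPM for Gm45407.

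The transcript tables divide the highest genes among their models, as a percent of the gene's TPM, which is scaled for length and is not a share of reads. AC119228.1-202, of 2 exons and 4469 bases, held 89.9% in replicate 1 and 82.4% in replicate 2. BE692007-202, a retained-intron model of 1 exon, held 59.9% and 68.8% and most of the gene's counts, 3659 and 2494. The spliced BE692007-201 had 440 and 202 counts with no assignment SD. The 5-exon Zfas1-205 held 45.8% and 46.9%, although the longer retained-intron model Zfas1-204 had more counts, 980 and 586, against 736 and 345 for Zfas1-205. In the 3 genes the same model had the highest percent in both libraries. For Tug1 the model with the highest percent differed: the 1-exon Tug1-205 held 33.4% in replicate 1 and 16.2% in replicate 2, and the 4-exon Tug1-202 held 22.0% and 40.5%. By counts Tug1-201 was the first in replicate 1, with 1769, and Tug1-202 in replicate 2, with 2371, while Tug1-205 had 761 and 293. Tug1-203 had 772 counts in replicate 1, with an assignment SD of 134, and was listed at 0 in replicate 2, so the 8 overlapping Tug1 models were not firmly separated. Both models of F630028O10Rik were close to even, at 54.3% and 53.1% for F630028O10Rik-201.

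Promoter windows of 300 bases, from 250 before to 50 after a RefSeq start, were matched by symbol for 59 of the 150; 57 windows of 48 genes lay within 1000 bases of a start in the files' annotation. The windows of Zfas1 (chr2:167062684-167062983, plus strand) and Tug1 (chr11:3648765-3649064, minus strand) are shown as those of divergent pairs, and that of F630028O10Rik (chrX:96239676-96239975, plus strand) as the host of a myeloid miRNA. The Tug1 window lies inside the annotated gene, which reaches 3649673, and does not include the Tug1 start 86 bases from that of Morc2a. Capitals mark the letters searched for, on either strand.
Zfas1: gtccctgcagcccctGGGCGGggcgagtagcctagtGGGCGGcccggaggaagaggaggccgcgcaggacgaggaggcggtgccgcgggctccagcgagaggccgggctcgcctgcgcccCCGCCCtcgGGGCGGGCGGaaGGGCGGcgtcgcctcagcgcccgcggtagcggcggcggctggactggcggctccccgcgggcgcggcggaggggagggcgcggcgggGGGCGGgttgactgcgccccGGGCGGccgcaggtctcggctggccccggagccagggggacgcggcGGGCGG
Tug1: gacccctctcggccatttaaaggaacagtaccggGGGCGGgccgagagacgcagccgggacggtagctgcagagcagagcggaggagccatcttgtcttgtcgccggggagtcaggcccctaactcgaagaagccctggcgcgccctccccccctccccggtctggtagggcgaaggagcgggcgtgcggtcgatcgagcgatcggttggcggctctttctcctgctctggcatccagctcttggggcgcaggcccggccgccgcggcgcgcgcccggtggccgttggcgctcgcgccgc
F630028O10Rik: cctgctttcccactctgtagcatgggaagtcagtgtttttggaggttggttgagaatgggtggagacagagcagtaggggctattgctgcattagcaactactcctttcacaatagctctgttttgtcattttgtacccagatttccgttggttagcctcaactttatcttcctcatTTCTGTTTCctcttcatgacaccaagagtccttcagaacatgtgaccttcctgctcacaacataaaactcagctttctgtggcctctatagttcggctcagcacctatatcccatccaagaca
Zfas1 held 9 GC boxes (GGGCGG) and Tug1 held 1, while F630028O10Rik held 1 match to the interferon regulatory factor letters GAAANNGAA. The observed over expected ratio of CG pairs was 0.946 for Zfas1 and 0.971 for Tug1, against 0.132 for F630028O10Rik. Among the 57 windows the median was 0.602, against 0.384 among all 32851 windows of the table. A GC box was in 43.9% of the 57 and in 35.7% of all windows. An E-box (CACGTG) was in 19.3%, from 8 genes, and in 7.15% of all windows. The letters GAAANNGAA were in 10.5% and 8.56%, the NF-kB letters GGANNTTCC in 7.02% and 4.26%, and the TATA letters TATAAA in 5.26% and 13.6%. The AP-1 letters TGANTCA were in 3.51% and 7.81%, and the ETS and PU.1 letters GAGGAAGT in 3.51% and 3.20%. No window of the 57 held the C/EBP letters TTGCGCAA or the cyclic AMP response element TGACGTCA, found in 0.183% and 1.79% of all windows. These are matches of letters in windows that partly belong to 1 gene, and they say nothing of binding. The polyadenylation letters AATAAA or ATTAAA were in the last 50 bases of 45.6% of 316 transcripts of the 150, against 42.0% of 4205 transcripts of all antisense-type genes and 38.5% of 8541 lincRNA transcripts.

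Between the libraries the 150 were on the whole a little lower in replicate 2 with TMM scaling, a direction that turned with library totals (median 0.00044) and with TPM (0.10), although they lay below the median of all genes under each of these scales. The median log2 ratio of replicate 2 over replicate 1 was -0.16 (quartiles -0.51 and 0.14), with 56 genes above 0 and 94 below. It was 0.003 for all 11761 genes whose counts averaged 50 or more and -0.05 for 158 other ranked antisense genes at that count. A ratio of 1 library to 1 has no replicate check, and starting quantity differed between the libraries, which cannot be told apart from the replicate. More than 2-fold higher in replicate 2 were 2 of the 150 (1.33%), against 1.05% of all 11761 genes. More than 2-fold lower were 10 (6.67%), against 2.98%. With counts scaled by library totals alone the split was 6 higher and 5 lower, against 2.11% and 1.93% of all genes, and with TPM it was 7 higher and 3 lower, against 3.02% and 1.49%. These scalings moved the median of all genes by 0.16 and 0.23, so which direction held more of the 150 depended on the scaling.

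Largest in the upward direction were Gm37401, Gm30329, Gm16892 and Gm15655. Gm37401, opposite the 3′ end of the GTPase gene Rhoa, had 88.2 counts in replicate 1 and 217 in replicate 2, a log2 ratio of 1.57 (95% counting interval 1.21 to 1.95), while Rhoa was at 0.00. Gm30329 had 177 and 419 counts, a log2 ratio of 1.52 (1.26 to 1.78). Gm16892 was at 0.98 and Gm15655 at 0.92, with their partners Tbc1d23 at 0.38 and Maf at -0.01. In the second quantification the ratios were 1.60 for Gm37401, 1.14 for Gm30329, 0.57 for Gm16892 and 0.23 for Gm15655, so those of Gm16892 and Gm15655 depended on the quantification. Rhoa and Maf did not differ along with their antisense genes, and 1700011L22Rik, the partner of Gm30329, was at 0.03 TPM in replicate 1 and listed at 0 in replicate 2. The read assignment SD of Gm37401 was 12.6 and 11.0 counts.

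Downward the largest were Gm16094, Adap2os, A930007I19Rik and Gm17139. Gm16094, which starts 469 bases from Sp110, had 294 and 83 counts in replicates 1 and 2, a log2 ratio of -1.54 (-1.92 to -1.19). Adap2os had 265 and 76 counts, a log2 ratio of -1.52 (-1.92 to -1.15), with its partner Adap2 at -0.91. A930007I19Rik was at -1.35 with Pdcd1lg2 at -1.31, and Gm17139 at -1.23 with Arel1, a ubiquitin ligase gene, at -0.77. In these 3 pairs the partner was lower in replicate 2 too. The second quantification gave smaller differences for Adap2os, -0.84, and A930007I19Rik, -0.83, both within 2-fold, and -1.28 for Gm16094; Gm17139 was listed at 0 there in replicate 2. Peak1os, at -1.13, differed, with Peak1 at 0.15. AC119228.1 was at -0.86 and Cd274 at -0.31.

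Over 125 pairs in which the partner's counts also averaged 50 or more, Spearman's rho of the 2 ratios was 0.389, and 85 pairs had the same sign. It was 0.361 in 93 pairs that share exon bases and 0.454 in 32 that share none. Of all 40 pairs that share none, 29 had the antisense gene inside the partner. There, intron reads of the partner cannot be told apart from antisense RNA without strand. In 73 pairs with at least 50% of the antisense exon bases opposite partner introns rho was 0.395. In 22 pairs with no antisense exon base opposite a partner intron it was 0.302. The part of such reads in these values was not tested. The partners' own median was -0.18, close to that of the antisense genes. Both members of a pair come from the same 2 libraries, so the values describe these libraries and carry no p.

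**Figure D3:**
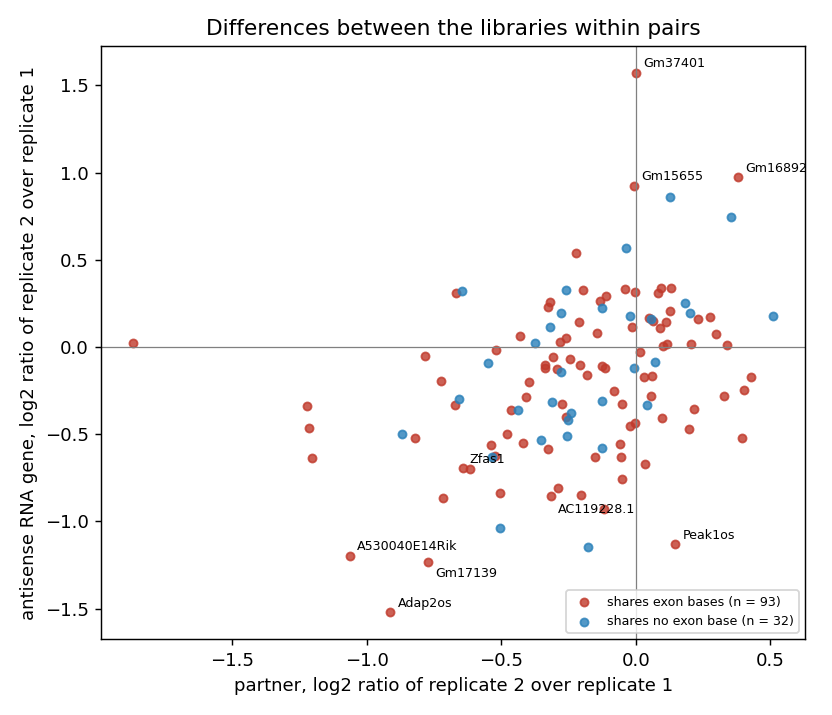
Log2 ratio of replicate 2 over replicate 1 for 125 antisense RNA genes (y axis) and their partners (x axis), from counts scaled by TMM and coloured by whether exon bases are shared. Adap2os, Gm17139 and A530040E14Rik lie low on both axes, whereas Gm37401, at 1.57, has a partner at 0.00.

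The second set of transcript tables, which was made from reads and an index and not from an alignment, gave 131 of the 150 (87.3%) within 2-fold of the gene tables in both libraries, on the CPM scale (counts scaled to equal library totals). Among 11755 genes at 50 or more counts the share was 94.3%. In both libraries 13 were over 2-fold higher in the second quantification and 2 over 2-fold lower. Both lower ones, Gm26716 and Gm17139, have all their exon bases in partner exons. Gm26716 had 60.4 estimated counts in replicate 1 and 449 in replicate 2 there, against 1159 and 837 expected counts in the gene tables. Gm17139 had 51.1 and 0 estimated counts, against 254 and 89.1 expected counts. The third such gene, Gm15655, had 344 and 426, against 295 and 463, and Gm37401 had 75.8 and 244, against 88.2 and 217, both within 2-fold on the CPM scale.

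Higher in the second quantification were first Gm48754, Gm20234, Gm28370 and Adap2os. Gm48754, inside the GTPase gene Rala, had 2242 and 2146 estimated counts, against 171 and 112 expected counts. Gm20234, opposite Slfn2, had 2015 and 1515, against 196 and 121. Gm28370 had 1245 and 1376, against 175 and 181, and Adap2os 1268 and 751, against 265 and 76. The Ikbke antisense gene Gm28913 had 1306 and 1093, against 245 and 138. Levels of these genes therefore depend on the quantification by several fold. For AC119228.1 the log2 difference between the quantifications was -0.18 and -0.16 in replicates 1 and 2, and for Tug1 0.01 and -0.14. On ranking by the second quantification 110 of the 150 would be kept, and on ranking by mean TPM 103.

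**Figure D4:**
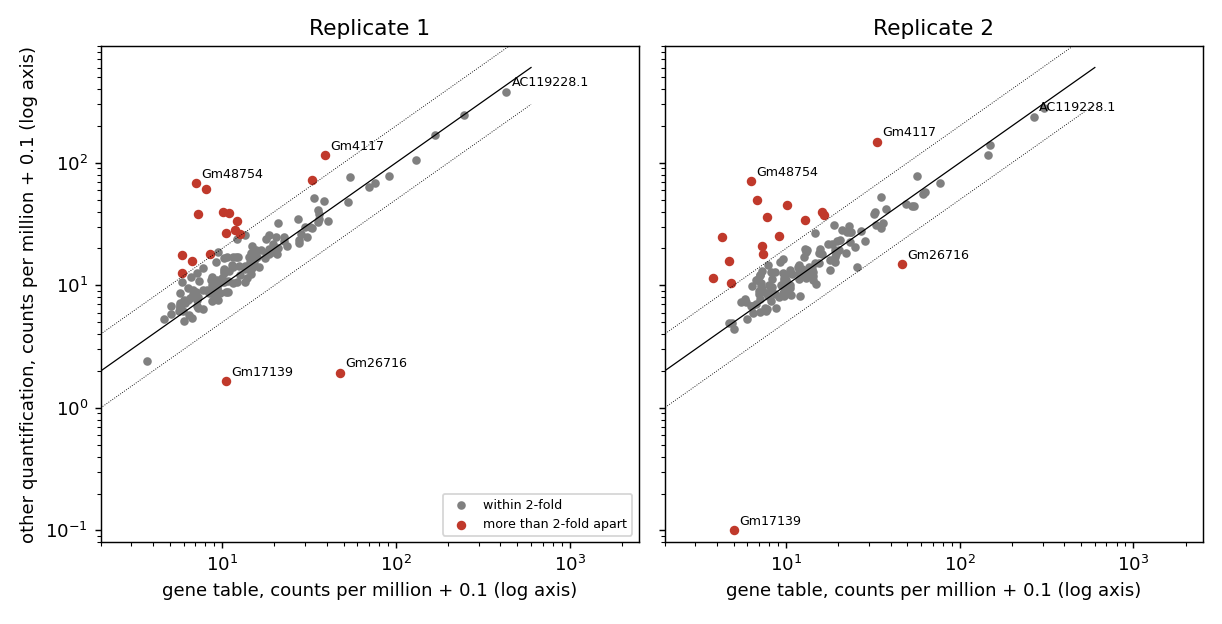
CPM plus 0.1 of the 150 antisense RNA genes in the gene tables (x axis) and in the second quantification (y axis), log axes, 1 panel per library; the solid line marks equality and dotted lines 2-fold. Most points lie between the dotted lines, with Gm48754 and Gm4117 above them and Gm26716 and Gm17139 below in both panels.

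The limit of the ranking cuts through like values. Just inside were Gm45515, Gm15859 and Gm35715, at mean expected counts of 122.5, 122.0 and 121.5. Just outside were Gm17690, Gm4279 and Gm10602, at 121.485, 121.0 and 120.8. Values of Gm20632 and Gm20633 are uncertain as those of single genes. Gm20632 and Gm20633 lie opposite Hist2h2aa2 and Hist2h2aa1, duplicated H2A histone genes, and their overlaps of 390 bases had 390 identical bases. They had 4.53 and 3.89 TPM (Gm20632) and 2.20 and 2.65 TPM (Gm20633) in replicates 1 and 2, against 63.6 and 32.9 TPM for Hist2h2aa2 and 10.6 and 3.41 TPM for Hist2h2aa1.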

How the data were processed

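Per the labels, nuclear total RNA of 2 libraries was sequenced after ribosomal depletion. Per the deposited file descriptions, reads were quantified on mm10 with annotation M21, and the gene and transcript tables came from a transcriptome alignment, the other tables from reads and an index. Aligner, quantifier and strand setting were not given in the sources used here. The deposited units are expected counts and estimated counts (reads assigned by the authors' quantifier, not whole), TPM by the authors, and isoform shares as a percent of a gene's TPM by the authors. Bounds of TPM deposited beside them, a signal in the same unit, were not printed. Estimated counts were summed per gene.

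From these, genes were ranked by mean expected count, and partners were read from the GENCODE M21 annotation. Counts were rounded, 0.5 was added, and ratios were scaled by TMM (edgeR 4.0.16, R 4.3.3) over genes whose counts averaged 10 or more, checked on simulated data. Depth was 24444219 and 18051097 counts. DESeq2 1.42.0 size factors, library totals and TPM were alternative scales. Levels over the partner used TPM + 1. The only group has 1 condition, so no p was computed. Sequences are from GENCODE M21 and RefSeq (GRCm38.p6); overlaps on chromosome 18 were not read.

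The gene set, the lists and the alternatives were chosen with earlier results of these data known. Named genes are the 10 highest, those with a partner on the interferon, NF-kB or macrophage lists, the 8 highest named for a coding gene with os or os and a digit, the 4 largest differences between libraries and between quantifications in each direction, the 4 highest and 4 lowest over a partner of at least 1 TPM, the 3 on either side of rank 150, and known antisense RNAs. Others were named after their values were seen.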

Additional observations from a re-analysis of the deposited data

How the results depend on the processing

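Of 41 alternatives 32 left the value within a margin: the SD between libraries for the share and the level over the partner, 1.5 times for counts, and 0.0993 for the median ratio between libraries. That last margin is the extent, to either side, of a 95% interval of the median over genes, since a ratio of 1 library to 1 has no spread between libraries. For some alternatives the outcome was fixed in advance, so the 32 do not measure robustness. With 2 libraries, the share in either alone must lie within 1 SD of their mean. Minimum mean counts of 10 or 50 removed no gene, as the lowest was 121.5. A lower TPM minimum could only move the 144 detected genes towards 150. The share of counts was 0.365% in the second quantification and 0.421% without the 10 highest genes of the series in the denominator, against 0.319%, and 0.311 to 0.328% with 1 library left out. The median log2 level over the partner, -1.79, was -2.32 with CPM in place of TPM, -2.01 with 0.1 added in place of 1, -1.53 in the second quantification and -1.64 in pairs that share no exon base. With 1 library left out it was -1.87 to -1.80. The median log2 ratio between libraries, -0.16, changed sign with library totals as the scale, to 0.00044, and with TPM, to 0.10. Under these the median of all genes was 0.17 and 0.23, so the antisense genes were below it by 0.17 and 0.13, as by 0.17 under TMM. No paired analysis was possible because both libraries belong to 1 group. Depth limits the lowest of the 150, with about 121.5 counts.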
